A study of Homo sapiens with 10 samples.

Results

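Radial glia marker genes were followed in the RNA-seq libraries of wild-type (WT) and ZNF274 knockout (KO) human cells. The 8 genes, chosen by name as markers of radial glia and neural stem cells, were FABP7, PTPRZ1, SLC1A3, PROM1, MSI1, MSI2, NES and VIM, of the 24050 genes listed in either count table. ZNF274 is a KRAB zinc finger protein, and the study asked what its loss does to gene expression in 2 cell types. HEK293T, a line derived from human embryonic kidney, was compared in 3 WT and 3 ZNF274 KO libraries, and neural progenitor cells (NPCs) in 2 WT and 2 ZNF274 KO libraries. The NPCs were made from the human embryonic stem cell line H1 through embryoid bodies in neural induction medium and then kept in progenitor medium. KO cells carried a CRISPR-Cas9 deletion made with guides on both sides of ZNF274, were selected with puromycin after transfection, and were grown from single HEK293T cells or from picked stem cell colonies, so each KO line is a clone. The design text speaks of independent WT and KO clones, but no label says which library came from which clone, and a difference between clones cannot be told apart from an effect of the KO if a group holds a single clone. For protocadherin expression in NPCs, a figure legend of the study speaks of an average over 2 parental cell lines, without tying them to libraries.

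Radial glia are the stem cells of the developing brain. Their cell bodies line the ventricle, they send a long fiber to the surface along which newborn neurons migrate, and they divide to give neurons and later glia. FABP7 (brain lipid binding protein) carries fatty acids in these cells. PTPRZ1 is a receptor-type tyrosine phosphatase whose ligands include pleiotrophin and midkine. SLC1A3 (GLAST) takes up glutamate, PROM1 (CD133) is a membrane protein of cell protrusions, and MSI1 and MSI2 are the Musashi RNA-binding proteins, which control translation in stem cells. NES (nestin) and VIM (vimentin) form intermediate filaments. Vimentin and nestin are also made by other immature cells, mesenchymal cells among them.

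In hg19, with the GENCODE annotation lifted to that build, all 8 genes are protein-coding and lie on 8 different chromosomes. FABP7 lies at chr6:123100861-123105219 on the plus strand, PTPRZ1 at chr7:121513143-121702090 on the plus strand and SLC1A3 at chr5:36596690-36688436 on the plus strand. PROM1 lies at chr4:15964699-16086001 on the minus strand, MSI1 at chr12:120779133-120806967 on the minus strand and MSI2 at chr17:55333212-55762050 on the plus strand. NES lies at chr1:156638555-156647199 on the minus strand and VIM at chr10:17270240-17279592 on the plus strand. Exons of VIM share 656 bases with the antisense RNA gene VIM-AS1, those of SLC1A3 share 147 bases with SLC1A3-AS1, and those of PROM1 share 166 bases with FGFBP2 on its own strand. The strand setting of the counting is not given in the sources used here, so the assignment of reads in these stretches is uncertain.

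Promoter windows of RefSeq on the hg19 build, the 250 bases before an annotated start, were found for 7 of the 8 genes, with 13 windows in all. The 4 printed here belong to the members with the strongest and the weakest KO effect in NPCs. Capitals mark CCAAT boxes (CCAAT or its reverse complement ATTGG) and GC boxes (GGGCGG or its reverse complement CCGCCC). Each runs 5′ to 3′ on the strand of its gene. The window of PTPRZ1 is cut to the 178 bases before the earlier start that GENCODE gives.
FABP7 promoter, chr6:123100611-123100860, plus strand: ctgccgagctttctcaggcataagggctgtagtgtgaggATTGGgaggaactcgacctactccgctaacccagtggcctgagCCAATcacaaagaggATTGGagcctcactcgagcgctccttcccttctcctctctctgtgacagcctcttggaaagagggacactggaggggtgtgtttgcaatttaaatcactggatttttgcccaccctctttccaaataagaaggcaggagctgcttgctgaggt
PTPRZ1 promoter, chr7:121512965-121513142, plus strand: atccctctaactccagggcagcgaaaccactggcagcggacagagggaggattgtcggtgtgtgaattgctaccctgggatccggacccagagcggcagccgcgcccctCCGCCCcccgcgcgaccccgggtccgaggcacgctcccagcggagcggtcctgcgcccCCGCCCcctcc
NES promoter, chr1:156647200-156647449, minus strand: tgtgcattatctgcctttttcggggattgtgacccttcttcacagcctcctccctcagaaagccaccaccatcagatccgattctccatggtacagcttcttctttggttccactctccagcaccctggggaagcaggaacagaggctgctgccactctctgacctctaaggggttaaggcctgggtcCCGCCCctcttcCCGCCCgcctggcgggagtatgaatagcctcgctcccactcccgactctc
VIM promoter, chr10:17269990-17270239, plus strand: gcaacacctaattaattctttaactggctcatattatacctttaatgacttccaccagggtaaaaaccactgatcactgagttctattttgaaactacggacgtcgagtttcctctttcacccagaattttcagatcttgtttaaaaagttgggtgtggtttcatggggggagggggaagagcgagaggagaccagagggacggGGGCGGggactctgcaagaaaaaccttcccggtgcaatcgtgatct

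Among these windows, that of FABP7 held 3 CCAAT boxes, a motif found in 32% of the 35116 windows of all genes. The whole PTPRZ1 window held 2 GC boxes, that of NES 2 and that of VIM 1, and this motif was found in 42.6% of all windows. The PTPRZ1 window had a GC content of 73.2% and 29 CpG dinucleotides, against a median of 58% and 11 over all windows. GC content was 52.8% in the FABP7 window, 58% in the NES window and 46% in the VIM window. The motifs were searched on both strands, and matches of different motifs did not exclude each other. None of the 13 windows held the letters TATAAA (in 10.7% of all windows), ATTTGCAT (1.63%), GTGGGAA (5.43%) or ACAATG (9.29%). These matches describe the letters of the windows and nothing more.

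Libraries held 18621266 to 23035490 counts on genes in NPCs and 21421013 to 32285876 in HEK293T cells. Values are given as normalized counts, in CPM (a gene's counts relative to the TMM-scaled size of its library), and 3 counts in a library were taken as the floor, which is 0.135 to 0.154 CPM in NPCs and 0.0921 to 0.131 CPM in HEK293T cells. Within each group, libraries differed beyond sampling noise. ZNF274 had 491 and 496 counts in the WT NPC libraries, 445, 423 and 492 in the WT HEK293T libraries and 0 in all 5 KO libraries. The labels call each library a separate sample, and p-values measure the spread between these samples only.

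What happened to the radial glia markers in NPCs without ZNF274 was the main comparison. FABP7 and PTPRZ1, well above the floor in WT NPCs, were almost lost in KO NPCs, where 0.97% and 2.23% of their WT level remained. MSI1, PROM1, SLC1A3 and MSI2 were down-regulated to 16.8%, 20.7%, 26.8% and 43.9% of the WT level. NES and VIM, the filament genes, were not differentially expressed. Differential expression was called where the p, adjusted by Benjamini-Hochberg over the 20577 genes tested, was below 0.05 in edgeR's quasi-likelihood test and the fold change (FC) above 2. All 8 members were tested, 6 were called lower and 0 higher, whereas 8.36% of all genes tested were called lower, 8.45% higher and 16.8% in either direction. The groups did not overlap for 7 of the 8 members, and for 67.1% of all genes tested. The median log2 FC was -2.09 over the 8 members and -0.022 over all genes.

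**Figure D1:**
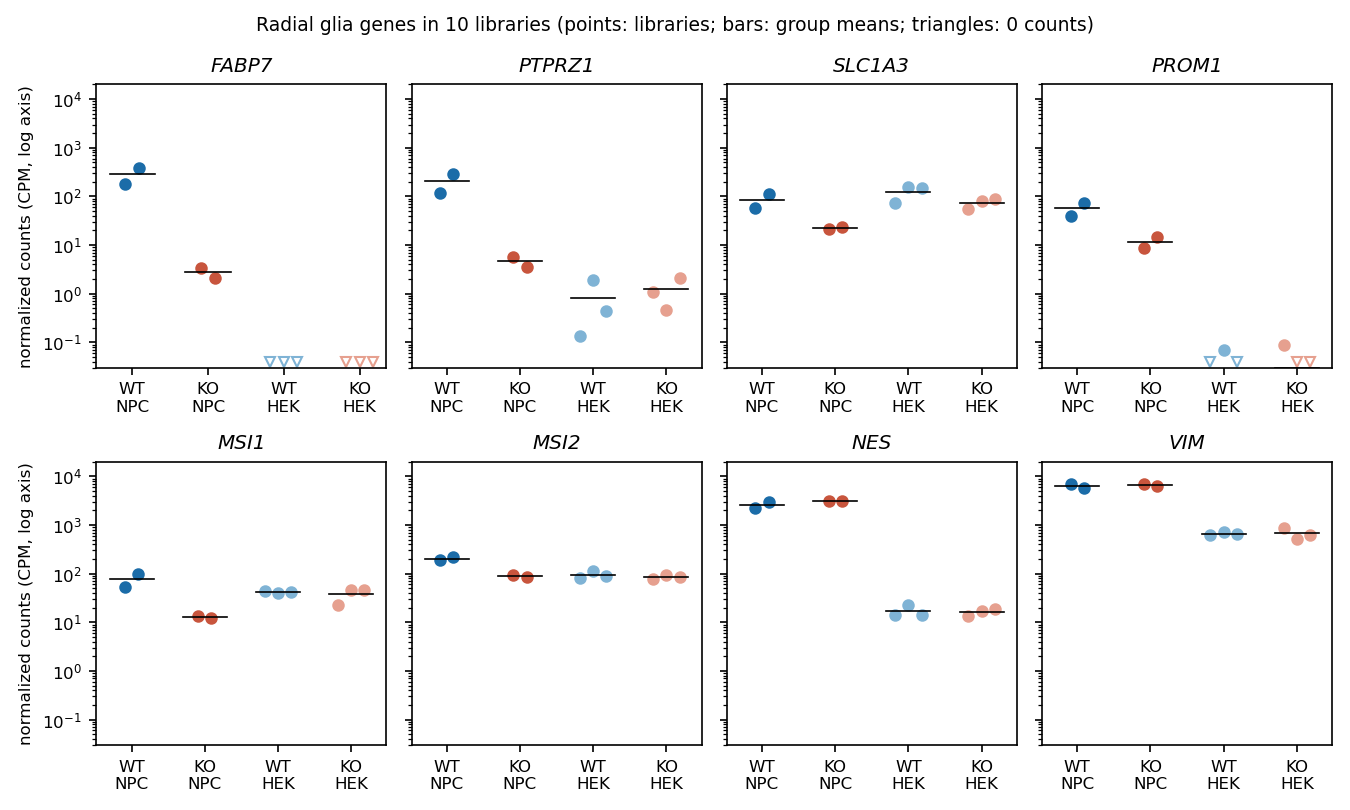
Normalized counts (CPM, log axis) of the 8 genes in each of the 10 libraries, with bars at group means and open triangles for libraries at 0 counts. FABP7 sat at 180 and 388 CPM in WT NPCs, at 3.41 and 2.12 CPM in KO NPCs and at 0 counts in all HEK293T libraries, whereas VIM stayed between 5800 and 7090 CPM in the 4 NPC libraries.

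FABP7, the fatty acid carrier, had 3806 and 7574 counts in the WT libraries S3 and S5, and 69 and 47 counts in the KO libraries S1 and S2. These are 180 and 388 CPM in WT NPCs and 3.41 and 2.12 CPM in KO NPCs. Both KO libraries were far below the lower WT library and above the floor, and the groups did not overlap. Its mean was 284 ± 147 CPM in WT and 2.76 ± 0.913 CPM in KO NPCs (SD, n = 2 each). The log2 FC was -6.69 (SE 0.452, edgeR adjusted p = 0.000147). Without WT replicate 2 (S5), the higher WT library, it was -6.04.

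PTPRZ1, the receptor phosphatase, had 2521 and 5768 counts in WT NPCs and 117 and 78 counts in KO NPCs. In CPM these were 119 in S3, 295 in S5, 5.78 in S1 and 3.51 in S2. As with FABP7, S5 was the highest library, and both KO libraries lay well below both WT libraries. WT NPCs had a mean of 207 ± 124 CPM and KO NPCs of 4.65 ± 1.6 CPM (SD, n = 2 each). The log2 FC was -5.48 (SE 0.491, edgeR adjusted p = 0.000405). Leaving out S5 gave a log2 FC of -4.70.

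SLC1A3, the glutamate transporter, measured 58.7 and 110 CPM in WT NPCs and 21.5 and 23.7 CPM in KO NPCs. The KO libraries were close to each other and did not reach the lower WT library. Its log2 FC was -1.90 (SE 0.28, edgeR adjusted p = 0.00299). PROM1, the protein of membrane protrusions, measured 38.9 and 74.6 CPM in WT NPCs and 8.89 and 14.5 CPM in KO NPCs. Here too the groups did not overlap, although the KO libraries themselves stood 1.64-fold apart. The log2 FC of PROM1 was -2.27 (SE 0.353, edgeR adjusted p = 0.00367).

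Among the Musashi genes, MSI1 measured 52.6 and 99.5 CPM in WT NPCs and 13.3 and 12.3 CPM in KO NPCs. The KO libraries were nearly equal, and each was below both WT libraries. MSI1 had a log2 FC of -2.57 (SE 0.294, edgeR adjusted p = 0.00108). MSI2 measured 192 and 216 CPM in WT NPCs and 92.2 and 87.3 CPM in KO NPCs. Both groups were tight and apart, and the log2 FC of -1.19 (SE 0.112, edgeR adjusted p = 0.00051) was the smallest of the 6 called, just past the FC threshold. Called at this size, MSI2 kept its call in each alternative tried, where its log2 FC was -1.30 to -1.11.

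The filament genes behaved otherwise. NES measured 2260 and 3000 CPM in WT NPCs and 3180 and 3090 CPM in KO NPCs. Both KO libraries were above both WT libraries, by little for S5, and the log2 FC was 0.25 (SE 0.143, edgeR adjusted p = 0.231). VIM measured 7020 and 5800 CPM in WT NPCs and 7090 and 6450 CPM in KO NPCs. These groups overlapped, with a log2 FC of 0.08 (SE 0.124, edgeR adjusted p = 0.686), and its sign changed to -0.03 when counts were scaled by library size alone.

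Summed over the 6 genes called lower, the level was 641 and 1180 CPM in WT NPCs and 145 and 143 CPM in KO NPCs. The 6 were picked by their calls in these same libraries, so a lower sum in KO NPCs follows from that choice. The sum of VIM and NES was 9280 and 8800 CPM in WT NPCs and 10300 and 9540 CPM in KO NPCs. The filament genes therefore made up 93.5% (S3) and 88.1% (S5) of the counts of all 8 markers in WT NPCs, and 98.6% (S1) and 98.5% (S2) in KO NPCs, as shares of counts that are not corrected for length. Since these are bulk samples, fewer cells that express a gene and less RNA of it per cell cannot be told apart.

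**Figure D2:**
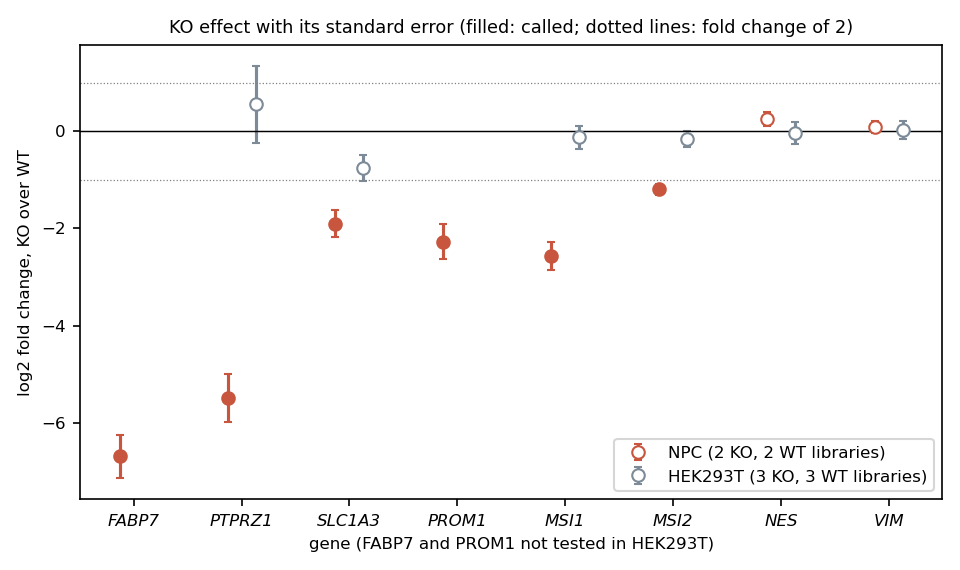
Log2 FC of KO over WT for each gene in NPCs (2 KO and 2 WT libraries) and HEK293T cells (3 KO and 3 WT libraries), with bars of 1 standard error, filled points for genes called and dotted lines at an FC of 2. The 6 filled points, all in NPCs, run from -1.19 for MSI2 to -6.69 for FABP7, and no HEK293T point is filled.

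The WT NPC libraries differed from each other in most of these markers. The ratio of S5 to S3 was 2.47 for PTPRZ1, 2.15 for FABP7, 1.92 for PROM1, 1.89 for MSI1 and 1.88 for SLC1A3, whereas it was 1.32 for NES, 1.13 for MSI2 and 0.827 for VIM. So 5 of the 8 members were over 1.5-fold higher in S5, as were 6% of the 11209 genes of at least 5 CPM. PTPRZ1 and FABP7 had a higher ratio than 99.1% and 98.6% of those genes. Over all these genes the KO libraries were closer, with 3.16% over 1.5-fold apart against 11.2% for the WT libraries. Of the 8 members, 3 were over 1.5-fold apart in KO NPCs, with a ratio of S2 to S1 of 0.621 for FABP7, 0.608 for PTPRZ1 and 1.64 for PROM1. Against S3 alone the log2 FC was still -6.03 for FABP7, -4.68 for PTPRZ1, -2.04 for MSI1, -1.73 for PROM1, -1.37 for SLC1A3 and -1.1 for MSI2. The size of each fall thus depends on the WT library it is measured against, and its direction does not for these 6 genes.

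**Figure D3:**
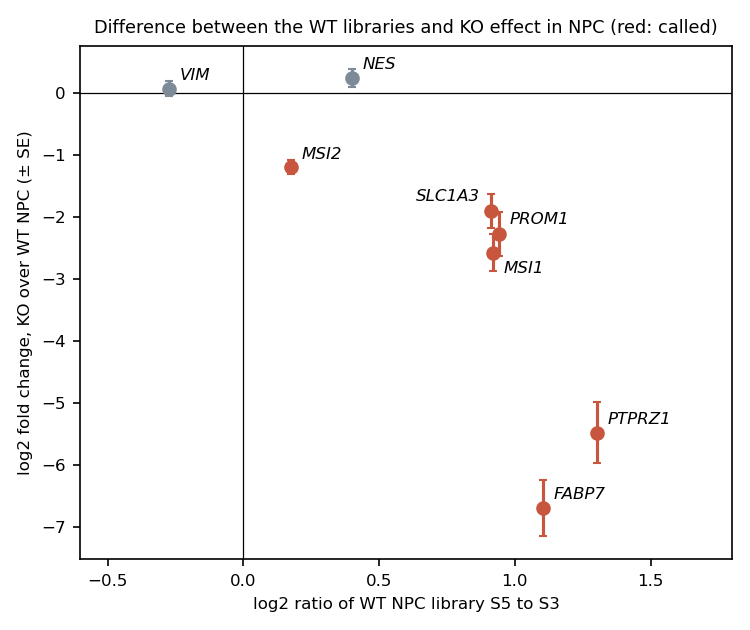
Log2 ratio of the WT NPC libraries S5 to S3 (x axis) against the log2 FC of KO over WT NPCs with its standard error (y axis), red for genes called. PTPRZ1 and FABP7, the lowest points, also lie farthest to the right, and both axes use the same WT libraries.

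Per length, the level of the markers could be ordered. In CPM per kb of exonic length, on the scale of all 10 libraries, WT NPCs had 1240 ± 169 of VIM, 473 ± 92.1 of NES and 114 ± 58.9 of FABP7 (SD, n = 2). Then came MSI1 with 24.8 ± 10.7 and PTPRZ1 with 20.5 ± 12.2, which did not differ beyond their spread. MSI2 with 9.2 ± 0.756, PROM1 with 7.62 ± 3.38 and SLC1A3 with 3.98 ± 1.71 were lowest, and MSI2 and PROM1 overlapped. In KO NPCs VIM had 1320 ± 78.6, NES 570 ± 7.92, MSI1 4.2 ± 0.208 and MSI2 4.08 ± 0.128 CPM per kb. PROM1 followed with 1.59 ± 0.556, FABP7 with 1.12 ± 0.363, SLC1A3 with 1.08 ± 0.0812 and PTPRZ1 with 0.463 ± 0.156 CPM per kb. The KO libraries of MSI1 and MSI2 overlapped, and those of FABP7 overlapped both PROM1 and SLC1A3. The exonic length of a gene joins the exons of every transcript, and with the length of the canonical transcript instead, tried only once the values were known, MSI2 in WT NPCs came to 32.1 and SLC1A3 to 21.6 CPM per kb, beside 25.7 for MSI1 and 25.6 for PTPRZ1. In KO NPCs that length gave 14.2 ± 0.447 for MSI2, 4.37 ± 0.216 for MSI1, 5.84 ± 0.44 for SLC1A3, 3.56 ± 1.15 for FABP7 and 2.95 ± 1.03 CPM per kb for PROM1. VIM was also the highest in WT NPCs by that length, whereas FABP7 with 362 ± 187 overlapped NES with 473 ± 92.1 CPM per kb.

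**Figure D4:**
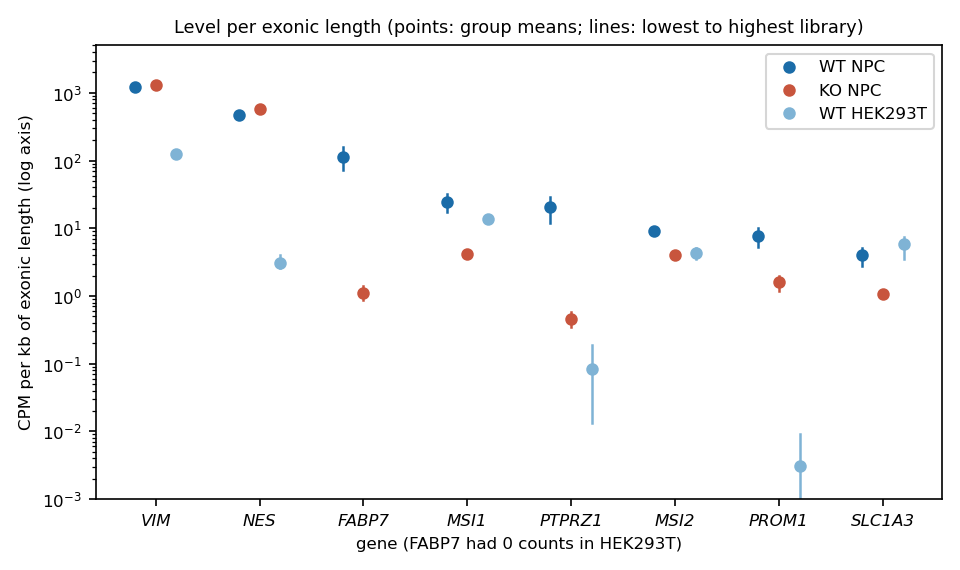
Level of each gene per kb of exonic length (CPM per kb, log axis) in WT NPCs, KO NPCs and WT HEK293T cells, with points at group means and lines from the lowest to the highest library. VIM and NES lead in NPCs of both genotypes, and FABP7 moves from 114 to 1.12 CPM per kb between WT and KO NPCs.

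In HEK293T cells the same comparison asked whether the KO moves these genes outside the neural lineage. None of the members was called there. FABP7 had 0 counts in all 6 libraries and PROM1 had 2 counts in WT replicate 2 and 2 in KO replicate 1, at or under the floor, so neither could be tested. The other 6 members were tested and 0 were called, beside 0.489% of the 19018 genes tested that were called in either direction. With a share this low, 0 of 6 does not set the members apart from other genes. Only SLC1A3 had an unadjusted p below 0.05 among these 6, and neither voom nor DESeq2 called any of them. The groups overlapped for each of the 6 tested, and did not overlap for 12.4% of all genes tested.

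SLC1A3 measured 74.6, 157 and 146 CPM in WT HEK293T cells and 54.1, 81.5 and 88.8 CPM in KO cells. Its WT libraries S16 and S17 were above all others, and S15 lay within the KO range. The log2 FC was -0.75 (SE 0.268, edgeR adjusted p = 0.563). MSI1 measured 44.4, 39.3 and 41.6 CPM in WT and 22.8, 45.7 and 46.5 CPM in KO HEK293T cells, with S18 alone low, and had a log2 FC of -0.12 (SE 0.239, edgeR adjusted p = 0.934). MSI2 measured 80.1, 115 and 90.6 CPM in WT and 76, 95.1 and 84.8 CPM in KO HEK293T cells. The ranges overlapped, and its log2 FC was -0.16 (SE 0.166, edgeR adjusted p = 0.879).

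The phosphatase PTPRZ1 was low in HEK293T cells, with 4, 56 and 13 counts in WT and 25, 15 and 57 counts in KO libraries. Its libraries scattered widely within both genotypes, and the log2 FC of 0.55 had an SE of 0.789 (edgeR adjusted p = 0.91). NES measured 14.3, 22.3 and 14.4 CPM in WT and 13.6, 16.9 and 19 CPM in KO HEK293T cells. VIM measured 624, 715 and 641 CPM in WT and 874, 505 and 633 CPM in KO HEK293T cells. For both filament genes the groups overlapped, with log2 FCs of -0.04 (SE 0.223, edgeR adjusted p = 0.979) and 0.02 (SE 0.18, edgeR adjusted p = 0.986).

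Whether the KO effect differed between NPCs and HEK293T cells was tested as an interaction over all 10 libraries and 19255 genes. For PTPRZ1 the effect in NPCs minus that in HEK293T cells was -6.00 on the log2 scale (SE 1.03, edgeR adjusted p = 0.00242). For MSI1 it was -2.43 (SE 0.431, edgeR adjusted p = 0.00291) and for MSI2 -1.01 (SE 0.236, edgeR adjusted p = 0.0133). These 3 of the 8 members were called lower, as were 6.22% of all genes tested. SLC1A3 had a difference of -1.13 (SE 0.463, edgeR adjusted p = 0.124), so its fall in NPCs was not shown to differ from its lower mean in KO HEK293T cells. NES had 0.31 (SE 0.289, edgeR adjusted p = 0.528) and VIM 0.07 (SE 0.265, edgeR adjusted p = 0.918). For FABP7 and PROM1 the interaction cannot be read, since HEK293T cells gave too few counts. The difference of PTPRZ1 was -7.52 without WT HEK293T replicate 2, -5.30 without KO HEK293T replicate 3 and -5.23 without WT NPC replicate 2, and was called in each case. That of MSI2 was just past the FC threshold, and its call was lost without WT HEK293T replicate 1, WT HEK293T replicate 3, KO HEK293T replicate 2, WT NPC replicate 2, KO NPC replicate 1 or KO NPC replicate 2. With each of the 10 libraries left out in turn it was -1.17 to -0.89 (adjusted p 0.000798 to 0.0653 over all alternatives). The interaction uses the libraries of both KO comparisons and is not independent of them.

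The labelled cell types were compared on these markers through the WT libraries, over 19088 genes. Of the 8 members, 6 were called higher in WT NPCs and 0 lower, whereas 25.1% of all genes were called higher and 15.5% lower. FABP7 and PROM1 are among the 6 but passed the count filter only through the NPC libraries. No result is drawn from their calls, and only the bounds and the ratio given below are read. NES had a log2 difference of 7.29 (SE 0.233, edgeR adjusted p = 3.17e-08) and VIM of 3.29 (SE 0.119, edgeR adjusted p = 4.88e-08). PTPRZ1 had 7.97 (SE 0.658, edgeR adjusted p = 6.82e-06) and MSI2 1.11 (SE 0.158, edgeR adjusted p = 0.000226). Without WT HEK293T replicate 2 the difference of PTPRZ1 was 9.48, and without WT NPC replicate 2 it was 7.19. FABP7 was at least 2810-fold higher in WT NPCs, against the floor of 3 counts per HEK293T library, and at least 1780-fold without WT NPC replicate 2. PROM1, with 2280 counts in WT NPCs and 2 in WT HEK293T cells, had a ratio of 2500 with a 95% interval from 690 to 20600 that covers counting error only. Both HEK293T counts came from WT replicate 2, and without it PROM1 was at least 567-fold higher in WT NPCs. MSI1 had a log2 difference of 0.87 (SE 0.229, edgeR adjusted p = 0.0086), below the FC threshold, and SLC1A3 of -0.56 (SE 0.325, edgeR adjusted p = 0.165). So MSI1, MSI2 and SLC1A3 were well above the floor in the kidney line too, whereas FABP7 and PROM1 were at or under it and PTPRZ1 ranged from 4 to 57 counts. The cell types were counted in separate tables, and cell type cannot be told apart from table here.

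Other genes of radial glia and neural stem cells were read from a list of 26, all tested in NPCs. Of these, 11 were called lower, 4 higher and 11 were not called, with a median log2 FC of -1.35, where 8.36% of all genes tested were called lower and 8.45% higher. NR2E1 (108 counts in WT and 0 in KO NPCs) and SOX1 (1140 and 3 counts) are among those called lower. Both passed the count filter only through the WT libraries, so no result is drawn from their calls, and the median includes them. TTYH1, a membrane protein of radial glia, had a log2 FC of -6.56 (edgeR adjusted p = 2.26e-05), falling from 157 ± 15.4 to 1.67 ± 0.642 CPM (SD, n = 2). LHX2, a forebrain homeobox factor, had -6.50 (adjusted p = 0.000156). SOX2, the neural stem cell factor, had -3.72 (adjusted p = 0.000107), from 223 ± 5.53 to 16.9 ± 5.93 CPM (SD, n = 2). The 4 called higher, named after their values were seen, were SOX9 with 1.64, the matrix protein gene TNC with 2.71, the proteoglycan gene BCAN with 3.25 and the fucosyltransferase gene FUT4 with 1.10 on the log2 scale. TNC varied widely between the WT libraries, at 8.5 ± 9.48 CPM in WT and 55.2 ± 21.3 CPM in KO NPCs (SD, n = 2 each). In HEK293T cells 22 of the 26 were tested and 0 called, where 0.489% of all genes tested were called in either direction.

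Gene families and partners of the members were read the same way, beside the 8.36% of all genes tested in NPCs called lower and the 8.45% called higher. Of the ligands and substrates of PTPRZ1, 2 of 10 were called lower and 0 higher, with a median of -0.22. These were the ligand gene PTN (pleiotrophin, log2 FC -3.15, edgeR adjusted p = 0.00534) and NRCAM, a neuronal adhesion molecule (-4.50, adjusted p = 0.00133). MDK (midkine), another ligand gene, had a log2 FC of -0.96 and did not pass the FC threshold. PTN varied in WT NPCs, at 237 ± 186 CPM (SD, n = 2).

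Among the 6 fatty acid binding protein genes tested in NPCs, FABP7 was called lower and FABP3 (1.15, edgeR adjusted p = 0.00376) and PMP2 higher, with a median of 1.23. Over all genes tested, 8.36% were called lower and 8.45% higher. PMP2 had 0 counts in WT and 22 in KO NPCs and passed the count filter only through the KO libraries. No result is drawn from its call, and the median includes it. FABP5 had a log2 FC of 0.91 and did not pass the FC threshold, and it measured 45.4 ± 2.75 CPM in WT and 85.6 ± 7.23 CPM in KO NPCs (SD, n = 2). Of the 6 SLC1 transporter genes tested, 4 were called lower and 1 higher, with a median of -1.77. Along with SLC1A3 these were SLC1A2 (33 counts in WT and 4 in KO NPCs, each summed over the libraries), the glial glutamate transporter, SLC1A4 (-1.85), a neutral amino acid transporter, and SLC1A6 (-1.70), a glutamate transporter of neurons. SLC1A5, the glutamine transporter, was higher with 1.18.

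Intermediate filament genes of types III, IV and VI, VIM and NES included, had 1 called higher and 2 lower of 9 tested, with a median of 0.25. For these and the Musashi partners below, the shares over all genes tested were 8.45% higher and 8.36% lower. DES, the muscle filament desmin, rose by 6.42 on the log2 scale (edgeR adjusted p = 1.9e-05), from 2.01 ± 0.633 to 172 ± 18.7 CPM (SD, n = 2). INA (-2.02) and NEFM (-1.75), filaments of neurons, fell. Of 7 targets and partners of the Musashi proteins, 2 were called lower and 0 higher, with a median of 0.21. They were LIN28A (-5.62, adjusted p = 4.25e-05), a partner of MSI1, and DCX (-3.68, adjusted p = 0.00159), a microtubule protein of migrating neurons. NUMB, the best known Musashi target, had a log2 FC of 0.52 and did not pass the FC threshold.

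**Figure D5:**
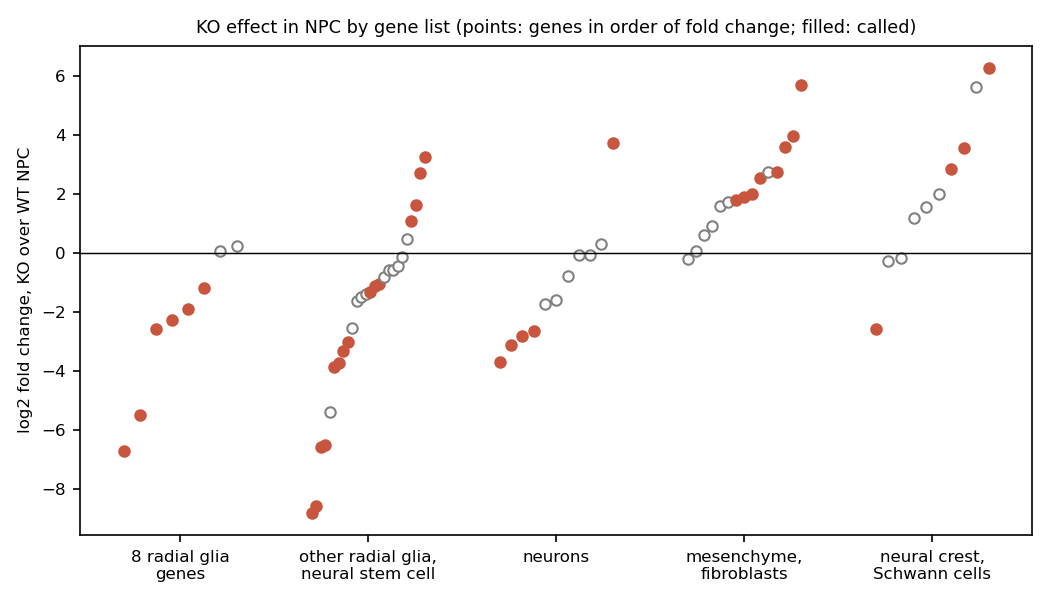
Log2 FC of KO over WT NPCs for the genes of 5 lists, each point a gene in order of its value and filled where called. The 8 radial glia markers run from -6.69 to 0.25, and mesenchyme and fibroblast genes lie mostly above 0.

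Markers of several other cell types also differed between the genotypes in the NPC libraries, where 8.45% of all genes tested were called higher and 8.36% lower. Mesenchyme and fibroblast genes had 8 called higher and 0 lower of 15, with a median of 1.89. COL1A1 (2.53), COL3A1 (3.59) and TAGLN (1.89) had the lowest p, not the largest log2 FC. Of the 7 not called, ACTA2 (-0.19) alone lay below 0. COL1A2 (0.07) was not called either, at 953 ± 514 CPM in WT and 1000 ± 275 CPM in KO NPCs (SD, n = 2 each). ACTA2 and COL1A2 were named after their values were seen. The summed level of the list was 3540 and 2840 CPM in WT and 11900 and 10200 CPM in KO libraries. Without TAGLN, the most abundant of them over all NPC libraries together though not in WT alone, it was 2720 and 1770 CPM in WT and 8350 and 6730 CPM in KO libraries. Neural crest and Schwann cell genes had 3 called higher and 1 lower (EDNRB, log2 FC -2.57) of 10, with a median of 1.77. Those higher were SNAI2 (2.86), NGFR (3.57) and SOX10 (6.28, from 2 counts in WT to 177 in KO NPCs). SOX10 passed the count filter only through the KO libraries, so no result is drawn from its call, and the median includes it. NGFR and SOX10 varied widely between the KO libraries, at 15.7 ± 13 and 4.3 ± 4.11 CPM (SD, n = 2). The summed level of this list was 48.9 and 48 CPM in WT and 243 and 151 CPM in KO libraries. Without SNAI2, the most abundant, it was 24.7 and 30.3 CPM in WT and 69 and 21.3 CPM in KO libraries, which overlap. Genes of neurons had 4 called lower and 1 higher of 11, with a median of -1.60, and the lowest p for MAP2 (-2.82), DCX and GAP43 (-3.11). They summed to 1280 and 1270 CPM in WT and 234 and 172 CPM in KO libraries over the whole list. MAP2 made up most of this sum, and without it the level was 287 and 179 CPM in WT and 68.6 and 43.4 CPM in KO libraries. The neuron markers TUBB3 (-0.06), STMN2 (0.32) and SYN1 (-0.05), named after their values were seen, were not called. ELAVL4, the neuron gene called higher, had 2 counts in WT and 30 in KO NPCs. It passed the count filter only through the KO libraries, and no result is drawn from its call. Astrocyte genes had 2 called lower (FGFR3 and SLC1A2) and 1 higher (AGT) of 8, and summed to 722 and 536 CPM in WT and 469 and 406 CPM in KO libraries. GJA1, which was not called, made up most of that sum, and the other genes had 31.3 and 33.6 CPM in WT and 10.7 and 6.89 CPM in KO libraries. AGT had 3 counts in WT and 27 in KO NPCs. It passed the count filter only through the KO libraries, and no result is drawn from its call.

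The counts that follow also stand beside 8.45% of all genes tested in NPCs called higher and 8.36% lower. Oligodendrocyte lineage genes had 3 called higher and 0 lower of 6 (CSPG4, MBP and SOX10), summing to 25.4 and 26.1 CPM in WT and 208 and 186 CPM in KO libraries. As above, no result is drawn from the call of SOX10. Without CSPG4 the sums were 11.7 and 15.6 CPM in WT and 29.7 and 16.1 CPM in KO libraries, so that gene carried most of the difference. OLIG1, a factor of that lineage, had 17 counts in WT and 0 in KO NPCs. Epithelial genes had 3 called higher and 0 lower of 9 (KRT7, KRT8 and KRT18), with sums of 665 and 412 CPM in WT and 1420 and 1600 CPM in KO libraries. Without KRT18 the sums were 454 and 295 CPM in WT and 719 and 812 CPM in KO libraries. Of the 6 not called, EPCAM (-0.57) and CLDN4 (-0.55) lay below 0 and the others above it. CDH1 was among these others, with 1 count in WT and 6 in KO NPCs. EPCAM, CLDN4 and CDH1 were named after their values were seen. Genes of endothelium had 2 called higher (CDH5 and VWF) and 1 lower (KDR) of 6, with sums of 49.2 and 176 CPM in WT and 76.2 and 101 CPM in KO libraries, which overlap. KDR and CDH5 varied widely between the WT libraries, at 66.5 ± 62.4 and 3.75 ± 4.17 CPM (SD, n = 2). Genes of pluripotent cells had 2 called lower (LIN28A and DNMT3B) and 1 higher (ZFP42) of 6, with sums of 211 and 244 CPM in WT and 100 and 85.4 CPM in KO libraries. In HEK293T cells no tested gene of any of these lists was called, where 0.489% of all genes tested were called in either direction. The part that a change in cell makeup has in the fall of the radial glia markers was not tested.

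The genes most like each called member over all 10 libraries were taken by the Pearson r of log2(CPM + 0.5) among 10278 autosomal protein-coding genes. They were FBLN7 (r = 0.999), SALL4 (0.998) and SORCS1 (0.998) for FABP7, ELFN1 (0.989), VEZF1 (0.987) and MMD (0.986) for PTPRZ1, and COL9A1, IGFBPL1 and TCIM (each 0.998) for PROM1. For MSI1 they were GLOD4 (0.989), SLC13A3 (0.976) and SLC11A2 (0.974), for MSI2 MBTD1 (0.979), CXXC4 (0.974) and NFYB (0.972), and for SLC1A3 MAML1 (0.976), ADAM22 (0.972) and IPO5 (0.958). Among the members, FABP7 and PTPRZ1 had an r of 0.978 and NES and VIM of 0.989, whereas SLC1A3 had -0.115 with FABP7. The 10 libraries are 4 groups of 2 cell types, so a high r describes a shared order of groups.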

How the data were processed

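RNA-seq was analysed in 10 libraries, 4 of NPCs and 6 of HEK293T cells. According to the methods, reads of stranded mRNA libraries were mapped to hg19 with hisat2, and uniquely mapped reads were counted with featureCounts on genes and transposable elements. The authors deposited raw counts per gene, 1 table for each cell type, without normalization (20965 genes in NPCs, 22750 in HEK293T cells). Tool versions are not given in the sources used here.

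Genes whose total count was at least the number of libraries entered edgeR 4.0.16 under R 4.3.3 (TMM, quasi-likelihood test, Benjamini-Hochberg adjustment over all genes tested), each cell type by itself and all 10 libraries for the interaction. The study used voom, which was run here as an alternative in limma 3.58.1. Calls needed an FC above 2 with an adjusted p below 0.05. Groups came from the labels, and replicate numbers follow the order of the samples. The fits were tested on simulated data, where the share of false calls was above the nominal level in the NPC and interaction designs and below it in the others, which bears on calls near the threshold.

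Symbols and positions came from GENCODE 44 lifted to hg19, and promoter sequences from RefSeq. Members and lists were chosen with earlier results of these data known. Named genes were the members, ZNF274, from each list the 3 called genes with the lowest p in NPCs and genes of a member's family, and the 3 genes most like each called member with at least 5 CPM. EDNRB, ELAVL4, GJA1, MDK, NR2E1, NUMB, OLIG1, SOX1 and the genes so marked in the text were named outside this rule, after their values were seen. Sums without the most abundant gene of a list were added then too. Genes of X and Y were left out of the search for like genes at that stage. Intervals and floors cover counting error only, since the counts carry no molecular identifiers. Other tools, scalings and filters were tried, among them DESeq2 1.42.0, and each library was left out in turn. Transposable elements and other assays were not analysed here.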

Additional observations from a re-analysis of the deposited data

Results flagged for a closer look

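The KO effect differed between NPCs and HEK293T cells for 3 of the radial glia markers by the interaction term of edgeR's quasi-likelihood test, which put each of them here. The difference was -6.00 on the log2 scale for PTPRZ1, -2.43 for MSI1 and -1.01 for MSI2. PTPRZ1 was lower in 2 of 2 KO NPC libraries than in any WT NPC library, and its HEK293T libraries overlapped at low counts. The call of MSI2 was lost in 6 of 17 alternatives, each of them a library left out, with an adjusted p of up to 0.0653. For MSI1 and MSI2 the NPC groups did not overlap and the HEK293T groups did.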

How the results depend on the processing

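No paired analysis was possible because the labels give the groups no shared replicate numbers. The count of members called stayed at 6 in NPCs under all 12 alternatives and at 0 in HEK293T cells under all 14. It was 2 to 4 for the interaction, where the 4 called by voom and by DESeq2 include FABP7 or PROM1, which cannot be read there, and 6 to 7 between the WT groups. A single library left in a group was assumed to vary like the others. Over the alternatives, the log2 FC in NPCs was -7.14 to -6.04 for FABP7, -6.00 to -4.70 for PTPRZ1, -2.96 to -2.05 for MSI1, -2.68 to -1.73 for PROM1 and -2.28 to -1.38 for SLC1A3, and the largest adjusted p was 0.0285. Scaling by library size alone moved the median log2 FC of all genes from -0.022 to -0.13 in NPCs and turned VIM to -0.03 there, NES to 0.04 in HEK293T cells and the interaction of VIM to -0.15. With voom, VIM in HEK293T cells was -0.02. With each library left out in turn, signs also changed for VIM in NPCs (-0.06 to 0.22) and, in HEK293T cells, for VIM (-0.21 to 0.20), NES (-0.15 to 0.20), MSI1 (-0.28 to 0.14) and PTPRZ1 (-0.12 to 2.08), and for the interaction of VIM (-0.13 to 0.31). None of these was called, and the cause was not tested. MSI1 was called between the WT groups without the FC threshold or without WT NPC replicate 1 (1.28). Low counts limit FABP7, PROM1 and PTPRZ1 in HEK293T cells, and 2 libraries per group limit every NPC value.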
